A study of Mus musculus with 8 samples.

Results

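The tumour suppressor p53, encoded in mice by Trp53, is a transcription factor that switches on a set of genes after DNA damage, some of which stop cell division and some of which kill the cell. The 10 genes described here, grouped under growth arrest, are Trp53 itself, its inhibitor Mdm2, and 8 further p53 targets. The 8 are Cdkn1a, Ccng1, Btg2, Trp53inp1, Phlda3, Eda2r, Zmat3 and Tigar. The name of the group is a label, since Phlda3, Eda2r and Tigar act on other processes, described below. They were taken by symbol from a table of 17634 genes, and all 10 were present. All 10 also passed the filter on low counts that left 12908 genes for testing, with 327 to 5890 counts (5889.62 for the highest) per gene as means over the libraries.

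RNA came from small intestinal crypts, the pockets that hold the stem cells and dividing progenitors of the gut lining, of C57BL/6N mice killed 3 days after irradiation. In 4 libraries the mice were labelled miR-29ab1-/- (KO), lacking the cluster that encodes miR-29a and miR-29b-1, and in 4 libraries they were wild type (WT). The sources used here give no radiation dose, no age and no statement on whether the deletion was limited to a tissue. Since every mouse was irradiated, the genotypes are compared after radiation alone, and no value says how far irradiation itself moved a gene. Libraries held 9481201 to 16231099 counts.

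In a healthy cell the Mdm2 protein marks p53 for degradation, and DNA damage signals break that hold. The freed p53 then raises Cdkn1a, whose product p21 blocks cyclin-dependent kinases, and also raises Mdm2, which closes a negative feedback loop. In the intestine this response arrests or removes crypt progenitors after radiation, and p21 is also made by epithelial cells as they leave the cycle and differentiate. MicroRNAs of the miR-29 family have been placed upstream of p53 in human cells and in mice, through repression of Pik3r1, Cdc42 and Ppm1d.

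The mature strands of the family are shown because their shared seed, bases 2 to 8 in capitals, is the part that pairs with targets and the part that the deleted locus and the remaining genes have in common (RefSeq, GRCm38.p6; Mir29a at chr6:31062673-31062694 and Mir29b-1 at chr6:31063025-31063047 on the minus strand, Mir29c at chr1:195037600-195037621 on the plus strand). The sequence of miR-29b-3p is the same from Mir29b-1 and from Mir29b-2.
miR-29a-3p: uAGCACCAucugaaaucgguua
miR-29b-3p: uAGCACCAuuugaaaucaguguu
miR-29c-3p: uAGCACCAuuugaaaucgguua
Neither Mir29a nor Mir29b-1 was analysed here, so the genotype labels were not checked by the targeted gene.

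A match to the seed, TGGTGCT, was found in the longest annotated 3′ UTR of 5 of the 10 genes (GENCODE M21, GRCm38), against 15.5 percent of the 12648 tested genes with an annotated 3′ UTR. The 5 sites are shown with the match in capitals.
Cdkn1a, chromosome 17: accccaaagcTGGTGCTcaataaatac
Btg2, chromosome 1: tttagctcctTGGTGCTcagagcacct
Trp53inp1, chromosome 4: tcttcagggtTGGTGCTaatgaggcta
Eda2r, chromosome X: agggaccattTGGTGCTttcttggctt
Zmat3, chromosome 3: ctccacctccTGGTGCTgggattacag
Of these, the site of Trp53inp1 alone is followed by an A, the base that extends a seed match at its 3′ end. The 3′ UTRs with a match were 1334 to 6692 bases long, and those without (Trp53, Mdm2, Ccng1, Phlda3 and Tigar) were 565 to 2758 bases long. A longer 3′ UTR has more room for a match, and the share over all tested genes was not matched for length. A match is a description of letters and does not show that the site is used. Over all tested genes the share with a match was 14.9 percent among those higher in KO crypts, 14.4 percent among those lower and 16.3 percent among the rest.

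Of the 10 genes, 3 were higher in KO crypts (Btg2, Cdkn1a and Trp53inp1), 2 were lower (Trp53 and Tigar) and 5 were not called (Mdm2, Ccng1, Phlda3, Eda2r and Zmat3) in edgeR's quasi-likelihood test with Benjamini-Hochberg adjustment over all genes. The share called, 50 percent, stood beside 47.3 percent of all tested genes, of which 24.2 percent were higher and 23.1 percent lower, so the number of calls does not set these genes apart. The same 5 genes were those whose KO and WT libraries did not overlap, and 45.4 percent of all tested genes did not overlap. The log2 folds ran from −0.68 to 1.31 around a median of 0.07, against 0.03 for all tested genes. The direction split within the group, with Btg2, Cdkn1a and Trp53inp1 at the upper end. At the lower end stood Trp53 itself and the target Tigar, whose call was lost without WT replicate 4.

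**Figure D1:**
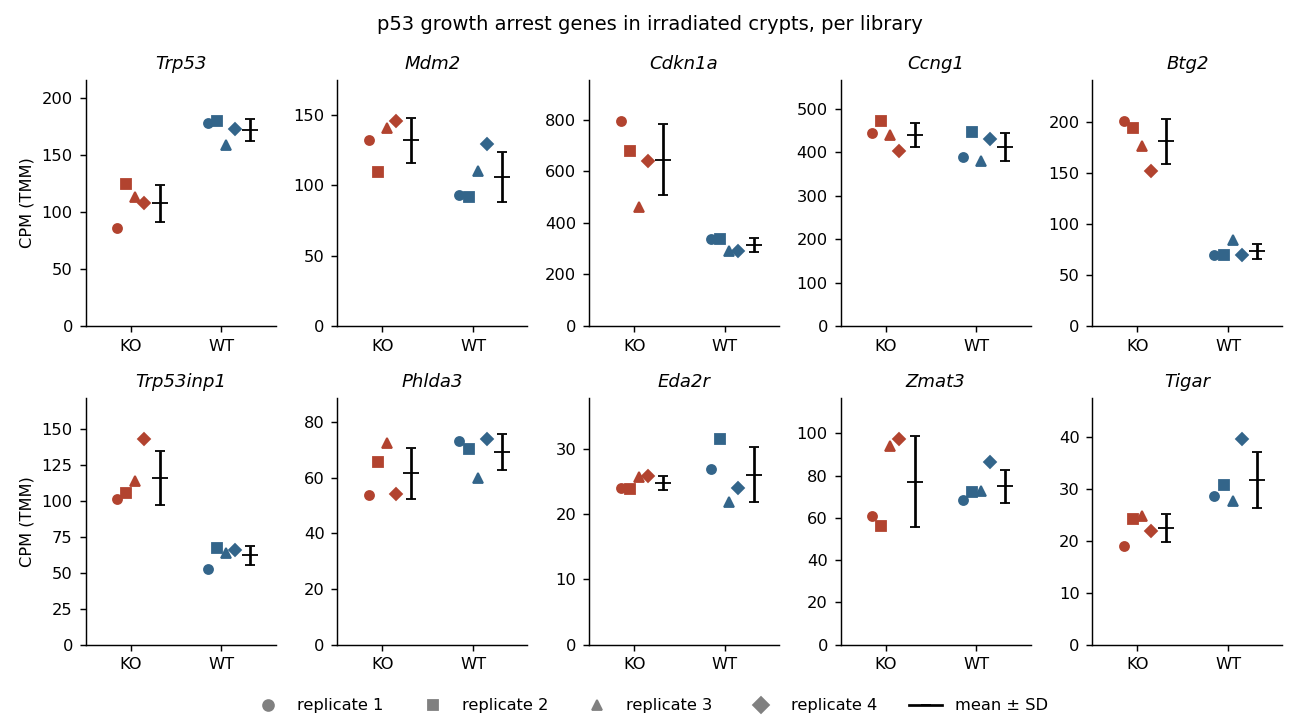
Level of each of the 10 genes in CPM (counts scaled to library size with TMM factors) in every library, KO left of WT, with a symbol for each replicate number and the mean ± SD beside the points. KO and WT points do not overlap for Trp53, Cdkn1a, Btg2, Trp53inp1 and Tigar, and they overlap for the other 5.

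Trp53, the source of the response, was lower in KO crypts. It had 86.0, 124, 113 and 107 CPM in KO replicates 1 to 4, against 178, 179.9, 158 and 172 CPM in WT replicates 1 to 4. Every KO library lay below every WT library, and KO replicate 1 was the lowest of the 8. The means were 108 ± 16.1 CPM in KO and 172 ± 9.66 CPM in WT (SD, n = 4 each), a log2 fold of −0.68 (SE 0.13, edgeR adjusted p = 0.00306). The p53 protein is controlled mainly by its stability, so transcript levels give no measure of its activity.

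Mdm2, the ubiquitin ligase that degrades p53, was not called. It had 132, 109, 140.4 and 146 CPM in KO libraries, against 93.2, 91.7, 109.9 and 129.6 CPM in WT libraries. The groups overlapped: KO replicate 2, the lowest KO library, lay below WT replicates 3 and 4. The log2 fold was 0.31, with a 95% interval from −0.02 to 0.65 (edgeR adjusted p = 0.106). With the replicate number as a block the log2 fold was 0.32 and Mdm2 was called as higher (edgeR adjusted p = 0.025), and without WT replicate 4 it was also called (log2 fold 0.42, edgeR adjusted p = 0.0451). Mdm2 was the member whose deposited counts were not all whole, in 4 of 8 libraries, as counters give where a read is divided between loci.

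Cdkn1a, which encodes the kinase inhibitor p21, had 795, 679, 463 and 639 CPM in KO libraries, against 338, 337, 289.5 and 292 CPM in WT libraries. All KO libraries were above all WT libraries, and the KO libraries were spread more widely, by 1.72-fold from lowest to highest against 1.17-fold in WT. The mean was 644 ± 138 CPM in KO and 314 ± 27.0 CPM in WT (SD, n = 4 each), a 2.05-fold difference (log2 fold 1.04, SE 0.18, edgeR adjusted p = 0.00195).

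Btg2, an antiproliferative protein that recruits the deadenylases of the CCR4-NOT complex to messenger RNA, showed the largest fold of the 10. It had 202, 195, 177 and 152 CPM in KO libraries, against 69.6, 70.1, 84.3 and 69.4 CPM in WT libraries. The lowest KO library was still well above WT replicate 3, the highest of its group. The means of 181 ± 22.0 CPM in KO and 73.3 ± 7.29 CPM in WT (SD, n = 4 each) gave a 2.47-fold difference (log2 fold 1.31, SE 0.13, edgeR adjusted p = 0.00104). By p-value Btg2 was in place 29 of all tested genes, ahead of Trp53inp1 in place 928 and Cdkn1a in place 1400.

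Ccng1, cyclin G1, which takes part in feedback on p53 through Mdm2 and protein phosphatase 2A, was not called. It had 445, 473, 439 and 403 CPM in KO libraries, against 389, 446, 381 and 432 CPM in WT libraries. The groups overlapped in part, with KO replicate 2 the highest library and WT replicate 3 the lowest. Its log2 fold of 0.10 had a 95% interval from −0.17 to 0.36 (edgeR adjusted p = 0.526), so a change of the size seen in Cdkn1a lay outside that interval.

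Trp53inp1, a stress-induced nuclear protein that promotes p53 activity and autophagy, was higher in KO crypts. It had 101, 105, 114 and 143 CPM in KO libraries, against 52.4, 66.8, 63.6 and 65.9 CPM in WT libraries. The groups were separate, with KO replicate 4 the highest and WT replicate 1 the lowest. The means of 116 ± 18.8 CPM in KO and 62.2 ± 6.63 CPM in WT (SD, n = 4 each) gave a 1.86-fold difference (log2 fold 0.90, SE 0.14, edgeR adjusted p = 0.00148).

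Phlda3, Eda2r and Zmat3 were not called. Phlda3, which competes with the kinase AKT for membrane lipids and so restrains survival signals, had 53.8, 65.7, 72.6 and 54.0 CPM in KO libraries, against 73.0, 70.2, 59.8 and 73.8 CPM in WT libraries. Its log2 fold was −0.17 with a 95% interval from −0.46 to 0.12 (edgeR adjusted p = 0.303). WT replicate 3 was the lowest WT library and KO replicate 3 the highest KO library, and the groups overlapped.

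Eda2r, a receptor of the TNF receptor family for ectodysplasin A2, had 23.9, 23.9, 25.6 and 25.9 CPM in KO libraries, against 26.9, 31.5, 21.8 and 24.0 CPM in WT libraries. The KO values lay inside the WT range, and the log2 fold was −0.07 with a 95% interval from −0.36 to 0.23 (edgeR adjusted p = 0.697).

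Zmat3, a zinc finger protein that binds RNA and influences splicing and messenger stability, was the most variable of the 10 within KO. It had 60.8 and 56.2 CPM in KO replicates 1 and 2 and 94.2 and 97.2 CPM in KO replicates 3 and 4, against 68.4, 72.4, 72.5 and 86.3 CPM in WT libraries. The KO libraries fell on both sides of the whole WT range. The log2 fold was 0.04 with a 95% interval from −0.39 to 0.48 (edgeR adjusted p = 0.875), and its sign was negative under several of the alternatives tried.

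Tigar, a phosphatase that lowers fructose-2,6-bisphosphate and turns glucose toward the pentose phosphate pathway, was lower in KO crypts. It had 19.0, 24.1, 24.8 and 21.8 CPM in KO libraries, against 28.7, 30.8, 27.7 and 39.5 CPM in WT libraries. The groups were separate, by a narrow gap between KO replicate 3 and WT replicate 3, and WT replicate 4 was the highest of all. The means of 22.5 ± 2.61 CPM in KO and 31.7 ± 5.39 CPM in WT (SD, n = 4 each) gave a log2 fold of −0.50 (SE 0.15, edgeR adjusted p = 0.0203). Without WT replicate 4 the log2 fold was −0.38 and the call was lost (edgeR adjusted p = 0.0541).

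**Figure D2:**
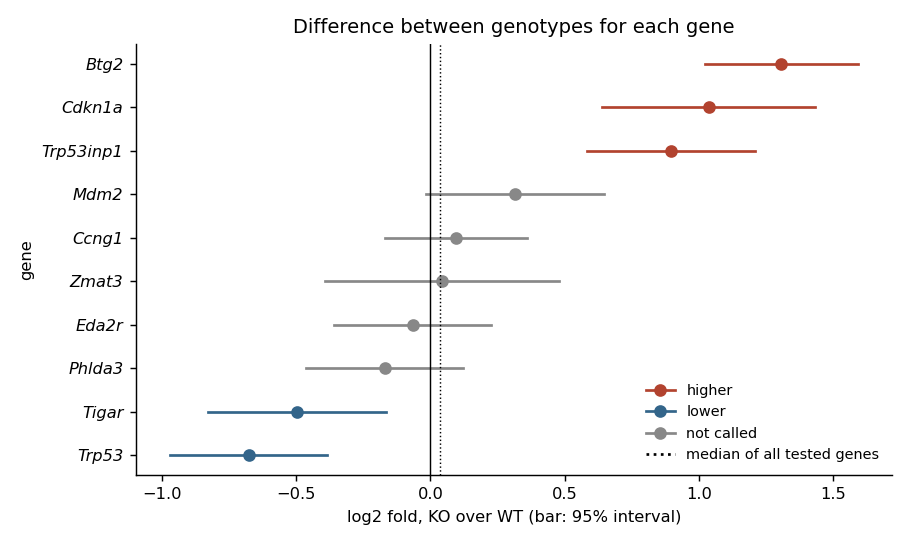
Log2 fold of KO over WT for each gene with its 95% interval from the edgeR fit, ordered by size, with the median of all tested genes as a dotted line. Btg2 (1.31), Cdkn1a (1.04) and Trp53inp1 (0.90) stand to the right, Tigar (−0.50) and Trp53 (−0.68) to the left, and the intervals of the other 5 include 0.

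Folds of this kind depend on how libraries are scaled. Scaling by total counts put the median of all tested genes at a log2 fold of −0.23, and the calls over all genes at 2089 higher and 4011 lower, against 3129 higher and 2976 lower with TMM factors. Cdkn1a, Btg2, Trp53inp1, Trp53 and Tigar kept their direction and call under that scaling. Ccng1 and Zmat3 turned negative, with log2 folds of −0.17 and −0.19 (edgeR adjusted p = 0.282 and 0.588).

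Ratios between genes within a library do not depend on the scaling, so the counts of the targets were also set against those of Trp53. Of the 9 targets, 7 had more counts per Trp53 count in every KO library than in any WT library, as had 52.3 percent of all other tested genes. Trp53 was itself lower in KO without overlap, so a gene with no difference of its own is raised in this ratio. For Cdkn1a the ratio was 9.24, 5.45, 4.09 and 5.95 in KO replicates 1 to 4, against 1.90, 1.87, 1.83 and 1.69 in WT replicates 1 to 4, a 3.25-fold difference in geometric means. For Btg2 the difference was 3.97-fold and for Trp53inp1 2.98-fold.

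Mdm2, the partner of Trp53 in the feedback loop, had 1.54, 0.879, 1.24 and 1.36 counts per Trp53 count in KO libraries, against 0.524, 0.510, 0.694 and 0.752 in WT libraries. The groups did not overlap, and the geometric means differed 2.01-fold. Ccng1 (1.72-fold), Eda2r (1.55-fold) and Phlda3 (1.42-fold) also did not overlap in this ratio, beside the log2 fold of −0.68 of Trp53, their denominator. Zmat3 (1.61-fold, exact permutation p = 0.0857) and Tigar (1.148-fold, exact permutation p = 0.171) overlapped. These are ratios to a gene that was itself lower in KO, and counts were not divided by gene length, so they compare genotypes and not genes.

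Of all 45 pairs among the 10 genes, 25 had ratios that did not overlap between the genotypes, against 42.1 percent of all pairs of tested genes. Each of these 25 had an exact two-sided permutation p of 0.0286, the smallest that 70 assignments of the labels can give, and 0.0514 after Benjamini-Hochberg adjustment over the 45 pairs, so no pair passed the threshold of 0.05. All 6 pairs of a higher and a lower gene were separate, which follows from both genes being separate on their own. Also separate were 13 of 15 pairs of a higher and an uncalled gene and 6 of 10 pairs of a lower and an uncalled gene. None of the 10 pairs of uncalled genes, of the 3 pairs of higher genes or of the single pair of lower genes was separate. Cdkn1a stood 1.89-fold higher relative to Ccng1 in KO than in WT, at an SD of 0.33 in KO and 0.15 in WT on the log2 scale (n = 4 each). Relative to Mdm2 it stood 1.62-fold higher, but the groups overlapped (exact permutation p = 0.0857; 0.124 after adjustment over the 45 pairs).

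**Figure D3:**
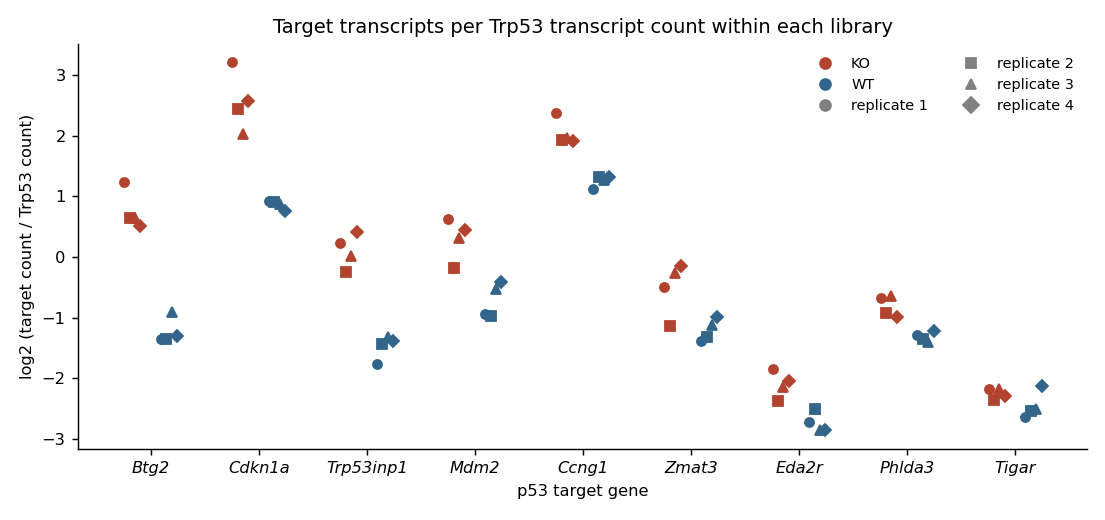
Log2 ratio of each target's count to the Trp53 count in the same library, KO left of WT for each target, ordered by the difference between the genotypes. KO points lie above all WT points for 7 of the 9 targets, with Zmat3 and Tigar as the exceptions.

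Levels between genes were compared on the FPKM scale, which divides by transcript length. Cdkn1a was the highest of the 10 in both genotypes, at 322 ± 38.2 FPKM in KO and 192 ± 7.74 FPKM in WT, followed by Ccng1 at 119.8 ± 13.6 FPKM in KO and 135 ± 9.45 FPKM in WT (SD, n = 4 each). Both of these were separate from the next gene in each genotype. Trp53 was the third, at 59.5 ± 12.8 FPKM in KO and 114 ± 1.32 FPKM in WT. In KO it overlapped with Btg2 (55.6 ± 5.41 FPKM), and Btg2 overlapped with Phlda3 (42.1 ± 10.5 FPKM), and Phlda3 with Mdm2 (38.4 ± 8.06 FPKM). In WT, Trp53 and Phlda3 (56.4 ± 3.43 FPKM) were each separate from the next gene, while Mdm2 (37.0 ± 7.37 FPKM) overlapped with Btg2 (27.4 ± 4.36 FPKM), the sixth. Trp53inp1, Zmat3, Tigar and Eda2r made up the low end in both genotypes, from 20.2 ± 5.32 FPKM for Trp53inp1 down to 4.69 ± 0.764 FPKM for Eda2r in KO, and from 13.0 ± 1.75 FPKM down to 6.39 ± 0.820 FPKM in WT. Btg2 was in place 4 in KO and place 6 in WT.

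The promoters were searched for the sequence that p53 binds, a pair of half-sites of 10 bases each. A window of 250 bases before to 50 bases after an annotated start was at hand for 8 of the 10 genes (RefSeq, GRCm38.p6), with a pair of starts for Cdkn1a. Adjoining half-sites with at most 1 mismatch outside the fixed C and G of each were found in 2 of these 9 windows, against 0.067 percent of all 32851 windows in the table. They belonged to the upstream start of Cdkn1a (chr17:29090729-29091028, plus strand), which begins 51 bases before that start, and to Ccng1 (shown at chr11:40755457-40755486, minus strand), which begins 195 bases before its start. The window of Cdkn1a is printed whole, since this gene rose, and the site of Ccng1 beside it, since that gene was not called; capitals mark the pair of half-sites.
Cdkn1a upstream start: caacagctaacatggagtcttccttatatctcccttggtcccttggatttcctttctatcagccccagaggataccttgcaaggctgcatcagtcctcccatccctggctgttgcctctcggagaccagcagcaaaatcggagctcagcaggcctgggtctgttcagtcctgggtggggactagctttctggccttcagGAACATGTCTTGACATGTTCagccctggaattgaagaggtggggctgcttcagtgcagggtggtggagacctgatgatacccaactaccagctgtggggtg
Ccng1 site: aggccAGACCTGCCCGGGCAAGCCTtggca
A single half-site without mismatch was found in 4 of the 9 windows, against 8.36 percent of all windows. The genes were chosen as Trp53 and its targets. The shares with full sites and half-sites therefore describe the list and are no result of these data. Besides those 2 windows these were Mdm2 (chr10:117710925-117710954, minus strand) and Trp53 (chr11:69580274-69580303, plus strand), shown because their transcripts stand at either side of the feedback loop. A single half-site does not show that p53 binds there or that the site acts in the loop.
Mdm2 half-site: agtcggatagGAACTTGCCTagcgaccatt
Trp53 half-site: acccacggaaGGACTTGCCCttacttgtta
No match was found in the windows of Btg2, Phlda3, Tigar and Eda2r or at the downstream start of Cdkn1a, which says only that these letters are not in those windows. Of the genes with a full site, Cdkn1a was higher in KO and Ccng1 was not called.

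Other p53 targets were also called in both directions, as were tested genes at large (24.2 percent higher and 23.1 percent lower). Of 12 apoptosis targets, 4 were higher in KO crypts and 1 was lower, with a median log2 fold of 0.08. The share called was 41.7 percent, below the 47.3 percent of all tested genes. Pmaip1 (Noxa, a BH3-only killer protein) had 235, 187, 68.4 and 216 CPM in KO libraries, against 50.7, 55.2, 30.1 and 28.9 CPM in WT libraries, a 4.29-fold difference (edgeR adjusted p = 0.0026). The death receptor Fas was 2.33-fold, Bbc3 (Puma) 1.53-fold and the apoptosome scaffold Apaf1 1.54-fold higher (edgeR adjusted p = 0.00122, 0.00502 and 0.0126), and Bid had a log2 fold of −0.43 (edgeR adjusted p = 0.0188). The pore-forming effector Bax was not called, its log2 fold being −0.03 (edgeR adjusted p = 0.813).

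Of 19 targets in repair, metabolism and stress, 4 were higher and 3 were lower, with a median log2 fold of 0.16. The share called was 36.8 percent, also below the 47.3 percent of all tested genes. The higher ones were Sesn1, a sestrin that restrains mTORC1, at 52.9 ± 20.3 CPM in KO and 9.87 ± 1.16 CPM in WT (SD, n = 4 each; 5.38-fold, edgeR adjusted p = 0.00109), the stress sensor Gadd45a (3.30-fold), and the kinases Plk3 (1.75-fold) and Plk2 (1.25-fold). The lower ones were the translesion polymerase Polh, the spindle protein Ckap2 and the glutaminase Gls2, with log2 folds of −0.92, −0.71 and −1.37. The edgeR adjusted p-values of Gadd45a, Plk3, Plk2, Polh, Ckap2 and Gls2 ran from 0.0011 to 0.0296.

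Of 20 regulators of p53, 7 were lower in KO crypts and 1 was higher, a share of 40 percent called against 47.3 percent of all tested genes, with a median log2 fold of −0.22. With the replicate number as a block 14 were called, and 4 without both libraries numbered 4. The damage kinases Chek2, Atr and Chek1 had log2 folds of −0.78, −0.78 and −1.06 (edgeR adjusted p = 0.00222, 0.00551 and 0.00583), and Ppp1r13b (ASPP1, which steers p53 toward apoptosis genes) was 1.38-fold higher (edgeR adjusted p = 0.00326). Mdm4, the partner of Mdm2, was not called, its log2 fold being 0.18 (edgeR adjusted p = 0.627). Of the 3 miR-29 targets named above, Pik3r1 was 1.47-fold higher (edgeR adjusted p = 0.00535), while Cdc42 and Ppm1d had log2 folds of 0.45 and −0.33 and were not called (edgeR adjusted p = 0.097 and 0.08). Each of the 3 has a single seed match in its longest 3′ UTR.

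Of 17 tested genes listed as paralogues of the 10 genes, 10 were higher in KO crypts and 2 were lower, with a median log2 fold of 0.76. The share called was 70.6 percent, against 47.3 percent of all tested genes. In the antiproliferative family of Btg2, Tob1, Btg1 and Tob2 were 2.55-fold, 2.21-fold and 1.86-fold higher, while Btg3 was not called (log2 fold −0.40, edgeR adjusted p = 0.0916). Btg1 had 330.4, 277, 302 and 209 CPM in KO libraries, against 142, 143, 127 and 93.3 CPM in WT libraries, so the groups did not overlap. Ccng2, the relative of Ccng1, was 4.76-fold higher at 170.1 ± 75.5 CPM in KO and 35.9 ± 23.6 CPM in WT (SD, n = 4 each), and Cdkn1b (p27), the relative of Cdkn1a, was 1.28-fold higher.

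The list of paralogues also counted the enzymes that make the metabolite Tigar removes. Of these, Pfkfb4, Pfkfb3 and Pfkfb2 were 4.86-fold, 4.61-fold and 1.56-fold higher and Pfkfb1 had a log2 fold of −1.34. Trp53inp2 (1.41-fold) and Zmat4 (6.82-fold) were also higher, and Phlda2 had a log2 fold of −1.01. The fold of Zmat4 rests on low levels, with 2.339 to 6.865 CPM in KO libraries and 0.2202 to 1.195 CPM in WT libraries. For Trp53inp2 and Phlda2 the groups overlapped. Phlda2 had 8.876 CPM in KO replicate 3, above the 7.829 CPM of WT replicate 3. The edgeR adjusted p-values of the called relatives ran from 0.00116 to 0.0496.

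Genes of the G1 phase, where p21 acts, and of the step into DNA replication were mostly lower in KO crypts. The list held 15 genes: G1 cyclins, kinases, pocket proteins, E2f transcription factors and Pcna. Of these, 10 were lower and 2 were higher, with a median log2 fold of −0.82. The share called was 80 percent, against 47.3 percent of all tested genes. Cyclin E1, Ccne1, had a log2 fold of −1.15, E2f1 of −1.10 and the replication clamp Pcna of −0.84 (edgeR adjusted p = 0.00108, 0.00164 and 0.00176). The higher ones were the growth-restraining pocket protein genes Rb1, with 96.0, 77.4, 59.2 and 72.0 CPM in KO libraries, against 35.0, 39.5, 33.0 and 32.9 CPM in WT libraries, and Rbl2 (2.17-fold and 2.10-fold, edgeR adjusted p = 0.00116 and 0.00405).

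The protein of Rbl2 belongs to the DREAM complex, which represses cell cycle genes downstream of p21. Of its 11 subunit genes 2 were higher (Rbl2 and Tfdp2) and 5 were lower (Lin9, Tfdp1, Rbbp4, E2f4 and Rbl1), so its parts moved in both directions. The share called was 63.6 percent, against 47.3 percent of all tested genes. All 15 cell cycle genes taken as repressed through p21 and DREAM were lower, against 23.1 percent of all tested genes. Their log2 folds ran from −1.53 to −1.05. Among them were Birc5, Bub1, Aurka and Cdc20 (log2 folds of −1.30, −1.43, −1.37 and −1.23, with edgeR adjusted p-values of 0.00104 for Birc5 and 0.00108 for the others). The CHR motif TTTGAA, on either strand, was found in the promoter windows of 7 of the 11 such genes with a window. It was in 12.3 percent of the windows of tested genes, 17.9 percent of all windows and 0 of the 9 windows of the 10 p53 genes. These cell cycle genes were listed as DREAM targets with earlier results of these data known. Their shared direction is therefore a description and no independent result. The motif share describes the list and is no result of these data. Of the 10 genes of CCR4-NOT, the deadenylase that Btg2 recruits, 6 were lower and none was higher. That is 60 percent called, against 47.3 percent of all tested genes. Cnot6, Cnot2, Cnot9 and Cnot7 had log2 folds of −0.64, −0.38, −0.49 and −0.41 (edgeR adjusted p from 0.00345 to 0.0125).

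**Figure D4:**
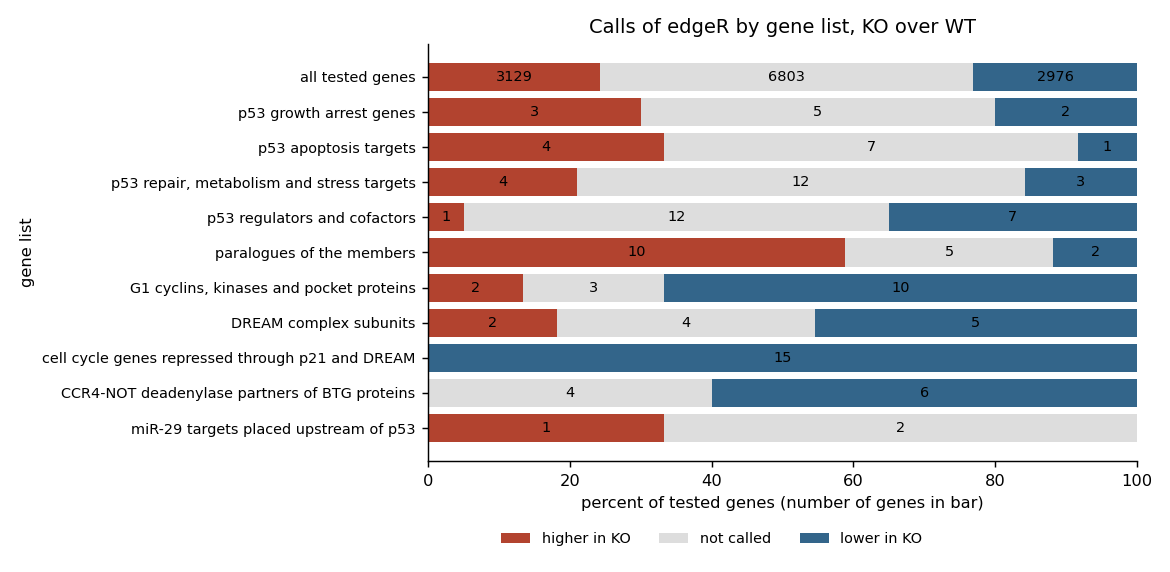
Share of tested genes called higher in KO, not called and called lower in KO for each gene list, with the number of genes in each bar and all 12908 tested genes in the top row. The 10 p53 growth arrest genes (3, 5 and 2) divide much like all genes, and the 15 cell cycle genes are all lower.

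In bulk tissue a higher level in each cell and a larger share of cells that express a gene cannot be told apart. The genotypes differed in the RNA levels of cell type markers, to which the same limit applies. All 12 enterocyte markers were higher in KO, with a summed level of 23730.2 to 76607.5 CPM in KO libraries and 1856 to 10114 CPM (10113.5) in WT libraries. Within KO, Cdkn1a followed the order of that sum, replicate 1 (76607.5 CPM) ahead of replicates 2 (65968), 4 (36732) and 3 (23730.2). Within WT, replicates 1 and 2, with 10114 and 10095 CPM of enterocyte markers, had 338 and 337 CPM of Cdkn1a, and replicates 3 and 4, with 3443 and 1856 CPM, had 289.5 and 292 CPM. The part of enterocyte content in the difference of Cdkn1a was not tested.

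Of 8 stem cell markers 5 were lower in KO, with sums of 591 to 1035 CPM in KO and 923 to 1250.1 CPM in WT. Among all tested genes, 23.1 percent were lower and 24.2 percent higher. Goblet, tuft and enteroendocrine markers were higher in 4 of 5, 4 of 4 and 3 of 4, and none of 5 Paneth cell markers was called. The epithelial markers Epcam, Cdh1, Krt8 and Krt19 summed to 7763 to 12099 CPM in KO and 7570 CPM (7569.73) to 9554 CPM in WT, so epithelium was present in every library.

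None of the markers of leukocytes (8 tested of 10), fibroblasts (4 of 5), endothelium (3 of 3) or smooth muscle (1 of 3) was called, but fibroblast markers differed between libraries of a group. They summed to 13.4, 11.7, 189 and 192 CPM in KO replicates 1 to 4, against 12.4, 19.99, 166 and 48.6 CPM in WT replicates 1 to 4. The pair of KO libraries with the high sums was also the pair with the high Zmat3 values, while WT replicate 3, with 166 CPM of fibroblast markers, had 72.5 CPM of Zmat3. Leukocyte markers summed to 271, 116, 630.5 and 90.2 CPM in KO and 164, 159, 157 and 41.3 CPM in WT. The part of these cells in the split of Zmat3 was not tested. Without KO replicates 3 and 4 and WT replicate 3, the libraries with the highest fibroblast sums, the same 3 of the 10 genes were higher and the same 2 lower, and Zmat3 had a log2 fold of −0.37 (edgeR adjusted p = 0.0938).

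**Figure D5:**
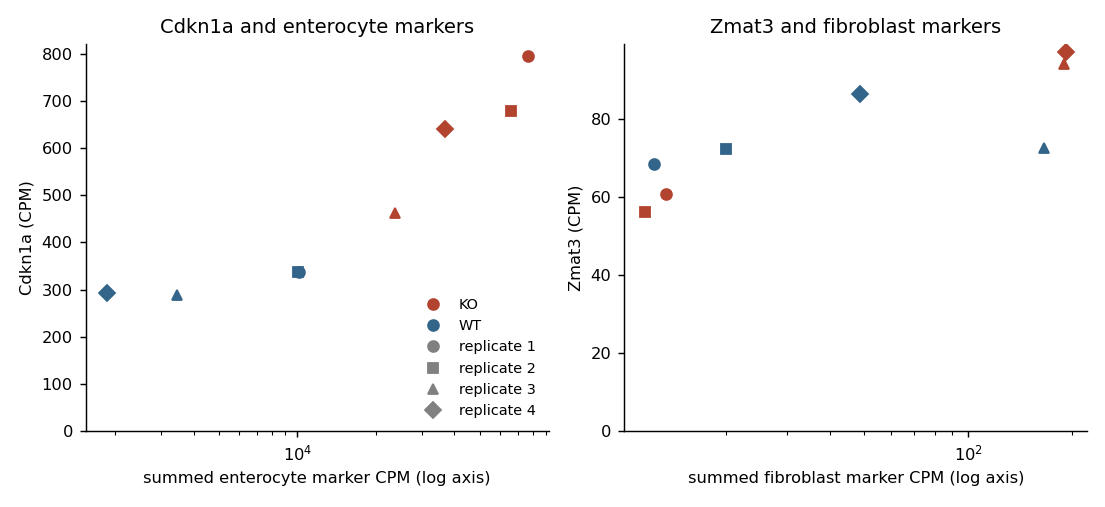
Left, Cdkn1a CPM against the summed CPM of 12 enterocyte markers (log axis) in each library; right, Zmat3 CPM against the summed CPM of 5 fibroblast markers (log axis). KO libraries start at 23730.2 CPM of enterocyte markers and 463 CPM of Cdkn1a, above all WT libraries, and the KO libraries with 94.2 and 97.2 CPM of Zmat3 are those with 189 and 192 CPM of fibroblast markers.

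The genes whose levels ran most nearly in parallel with Cdkn1a over the 8 libraries, among 10511 genes outside the lists with a mean of at least 50 counts, were Usp2, Il22ra1, Pcyt1a, Irf9 and Atg4a, each with a Pearson r of 0.996 on log2 CPM. All 5 were higher in KO, by log2 folds from 0.71 for Atg4a to 2.80 for Usp2. Those most like Mdm2 were Xrn1, Trip11, Arfgef2, Kdm2a and Hipk1, with r from 0.967 to 0.982, and none of these was called. The values describe 8 libraries that fall into 2 genotypes and the genes were picked for them.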

How the data were processed

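RNA-seq of 8 libraries was used, 4 KO and 4 WT, grouped by the genotype in their labels. The authors deposited read counts for every gene in each library. Of these, 8.04 to 9.18 percent were not whole, so the deposited values were treated as estimated counts and rounded. The second set of deposited columns names no unit and was taken as FPKM, since the ratio of value to count, gene by gene, scaled with library size. The submitters' processing notes list HISAT2 and DESeq2 and no roles; counter, genome build and strandedness: not given in the sources used here. Without strand, exons of Cdkn1a and Tigar that share 273 and 122 bases with antisense genes in GENCODE M21 could hold reads of either gene; the other 8 genes share none.

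The test was the quasi-likelihood one of edgeR 4.0.16 (R 4.3.3), after filterByExpr and TMM scaling, on genotype alone, adjusted over all 12908 genes with a threshold of 0.05. CPM values use TMM factors, SE is the log2 fold divided by the square root of F, and 95% intervals use the degrees of freedom of the fit. The fit was tested on simulated data in which few genes differed, in equal numbers up and down. Far more genes were called here, so that test does not probe the scaling of these libraries. Ratios used counts plus 0.5 and exact permutation tests in scipy 1.17.1. Alternatives were DESeq2 1.42.0, upper-quartile and total-count scaling, 2 other filters (none, and a mean of at least 50 counts), limma 3.58.1 on log2(FPKM + 1), the replicate block, and left-out libraries.

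The replicate numbers, taken from the labels, served as a block in an alternative fit only. The main test and the permutation tests treated the libraries as unpaired. The block was tried because libraries with the same number deviated together from their group means (r of 0.311 to 0.524). With it 7226 of the 12908 genes were called, against 6105 in the main test. Across numbers r was −0.478 to 0.447, and KO replicate 1 with WT replicate 2 (0.447) exceeded the lowest same-numbered pair; what a number stands for is not stated. Y-linked genes summed to 1 and 3 counts in KO and WT replicate 4 and 1285 to 2061 elsewhere. By these counts replicate 4 of each genotype held female tissue and every other library held male tissue. Replicate 4 thus came from other animals than the rest of its group, and sex was not in the main test. The labels do not say whether replicates are separate animals or pools. A p-value then reflects only how these libraries vary, which may in part be technical. The members and lists were chosen with earlier results of these data known. Named are all 10 genes, up to 4 genes of smallest p in each other list, called genes where a list had 5 or fewer in a direction, and the 5 genes most like Cdkn1a and Mdm2; Bax, Mdm4, Tob2, Btg3, Ccng2, Cdkn1b, Pfkfb2, Trp53inp2 and Zmat4 were chosen after their values were seen.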

Additional observations from a re-analysis of the deposited data

Results flagged for a closer look

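For each of the 10 genes the highest and the lowest library of a group were compared with the rest of that group, in 20 groups of 4, where chance flags about 1 in 20. Btg2 in WT replicate 3 stood apart at 84.3 CPM, against 69.4 to 70.1 CPM in the other 3 WT libraries. The gap was 0.953 of the range of the group, above Dixon's 95% critical value for 4 samples. All 4 KO libraries remained above this value, at 152 CPM or more.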

How the results depend on the processing

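Trp53, Cdkn1a, Btg2 and Trp53inp1 kept direction and call under all alternatives run, with log2 folds from −0.95 to −0.62, from 0.74 to 1.20, from 1.00 to 1.52 and from 0.58 to 0.93. The call of Tigar was lost without both libraries numbered 4, those almost without Y-linked counts (log2 fold −0.40, edgeR adjusted p = 0.072), where 1 gene was lower. It was also lost without WT replicate 4. The part of sex in this was not tested. Leaving out single libraries left 1 to 2 lower genes. Phlda3 was called in limma on FPKM (log2 fold −0.44, adjusted p = 0.0434). The replicate block called Mdm2 and changed no other call of the 10.

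Signs reversed in genes that were not called. Zmat3 had log2 folds of −0.0446 under upper-quartile scaling, −0.188 scaled by total counts, −0.237 on FPKM, −0.0645 without both libraries numbered 4, −0.367 without the 3 libraries highest in fibroblast markers (chosen after seeing the data), and −0.0705, −0.145 and −0.0053 without KO replicates 3 and 4 and WT replicate 1; leaving out single libraries gave up to 0.1135. Ccng1 had −0.171 with total-count scaling, −0.173 on FPKM and −0.0001 to 0.1328 without single libraries (lowest without KO replicate 2). Eda2r had −0.1462 to 0.0322 without single libraries (highest without WT replicate 2).

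Called regulators of p53, 8 of 20, were 14 with the replicate block, 4 without both libraries numbered 4 and 5 to 10 without single libraries. Called apoptosis targets, 5, were 3 without both libraries numbered 4. Called miR-29 targets, 1 of 3, were 2 with upper-quartile factors, the replicate block or without the 3 fibroblast-rich libraries, and 1 to 2 without single libraries. The causes were not tested. Separate pairs of genes numbered 25 with offsets of 0 or 5 and on FPKM, and 25 to 30 without single libraries, where fewer libraries make separation easier. In the replicate block 34 pairs had 4 same-numbered differences of one sign, where the smallest exact p is 0.125.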
